A study of Mus musculus with 36 samples.

Results

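The TGF-β and activin pathway was followed through 9 genes, which were taken by name from the 55536 genes listed in each RNA sequencing library. They were the ligand genes *Tgfb1*, *Tgfb2*, *Tgfb3* and *Inhba*, the receptor genes *Tgfbr1*, *Tgfbr2* and *Tgfbr3*, the signal transducer *Smad3* and its inhibitor *Smad7*. The 36 libraries came from mouse brown pre-adipocyte lines in which Cas9 had disrupted both copies of *Rxra*, the gene of the nuclear receptor RXRα. Each of 2 knockout clones, numbered 48 and 66, received by retrovirus either wild-type *Rxra* (*Rxra*WT) or *Rxra* coding for alanine at a serine phosphorylation site (*Rxra*SA), and the study asked whether this site matters for differentiation. Cells were taken at day 0, when confluent in medium with insulin and triiodothyronine, at day 2, after exposure to dexamethasone, isobutylmethylxanthine and indomethacin as well, and at day 6, after return to the day 0 medium. Each clone, genotype and day was represented by 3 libraries, so that a day had 12 libraries and a genotype 6 on each day. Every line thus lacked endogenous *Rxra* and carried a retroviral copy, each clone stands for a single founder cell, and the libraries of a clone formed a sequencing pool of their own. Differences between clones and between pools cannot be told apart.

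TGF-β ligands bind the type II receptor encoded by *Tgfbr2*, which then activates the type I receptor encoded by *Tgfbr1*, while the co-receptor encoded by *Tgfbr3* (betaglycan) presents the ligands at the cell surface. The activated receptor phosphorylates Smad2 and Smad3, which enter the nucleus with Smad4 and change transcription, and *Smad7* is one of the genes they induce and shuts the receptor off again. *Inhba* encodes the subunit of activin A, which acts through receptors of its own on the same Smad2 and Smad3. In adipose precursors both ligand families are known for holding back adipocyte differentiation.

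Counts summed to between 11351078 and 24349263 per library (median 18338726), and 16723 genes, all 9 pathway genes among them, passed the filter on low counts. Levels are given as CPM, the counts in every 1000000 of a library after edgeR's TMM scaling, and a gene was called when its p-value in edgeR's quasi-likelihood test, adjusted by Benjamini-Hochberg over all genes tested, was under 0.05. Library size alone as the scale moved the median of all log2 fold changes by -0.26 for day 2 and by -0.19 for day 6, both against day 0. It also took the share of higher genes among those called from 48.9% to 33.6% and from 48.2% to 34.9%. *Rxra* lay between 92.6 and 712 CPM in all libraries, and since every line carried the retrovirus these counts do not check the knockout. The summed level of 10 brown adipocyte markers had a median of 153 CPM at day 0, 3543 CPM at day 2 and 6869 CPM at day 6. *Adipoq*, *Fabp4*, *Plin1* and *Pparg* were among those with the highest means at days 2 and 6. That of 8 pre-adipocyte markers had medians of 588.4, 492.9 and 653.4 CPM, and *Pparg*, which is on both lists, had means of 75.3, 399 and 522 CPM. From day 0 to day 6 the mean fell from 92.0 to 19.4 CPM for *Pdgfra*, from 210 to 72.7 for *Pdgfrb* and from 52.6 to 1.74 for *Ly6a*. It also fell from 133 to 16.8 CPM for *Cd24a* and from 2.71 to 0.399 for *Cd34*. The mean of *Zfp423* rose from 2.35 to 24.1 CPM, and *Dlk1* had at most 1 count in any library. The markers particular to brown fat were nearly absent, with at most 5 counts of *Ucp1* and at most 1.66 CPM of *Cidea* in any library. Summed endothelial, leukocyte and mesothelial markers reached at most 11.5 CPM, and the leukocyte gene *Ptprc* had at most 1 count. Skeletal muscle markers lay at or under 4.55 CPM at days 0 and 2 and between 14.6 and 30.1 CPM at day 6, and their part in the results was not tested. The day 6 sum was carried by 1 of these 5 markers, which had 14.2 to 29.9 CPM. Of the others, 3 had at most 3 counts in any library of day 6, *Myf5* and *Ckm* among them.

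Between days 0 and 2, *Tgfb2*, *Tgfb3*, *Tgfbr2*, *Smad3* and *Smad7* fell and *Tgfbr1* and *Tgfbr3* rose, which made 7 of 9 genes called against 73.3% of all genes tested. Between days 0 and 6, *Tgfb2*, *Tgfb3*, *Inhba*, *Tgfbr2*, *Smad3* and *Smad7* fell and *Tgfb1* and *Tgfbr1* rose, 8 of 9 genes against 68.3% of all genes. Between days 2 and 6, *Tgfb1*, *Tgfb3* and *Smad3* rose and *Inhba*, *Tgfbr3* and *Smad7* fell, 6 of 9 genes against 62.0%. Clones 48 and 66 fitted alone called 64.3% and 61.4% of genes between days 0 and 2, 55.2% and 57.1% between days 0 and 6, and 49.2% and 49.6% between days 2 and 6. The 3 comparisons of days share their groups. The count of called genes is thus close to that of genes in general, and what follows concerns the direction and size for each gene and how the clones differed. In bulk libraries such as these, fewer cells expressing a gene and less RNA per cell cannot be told apart.

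**Figure D1:**
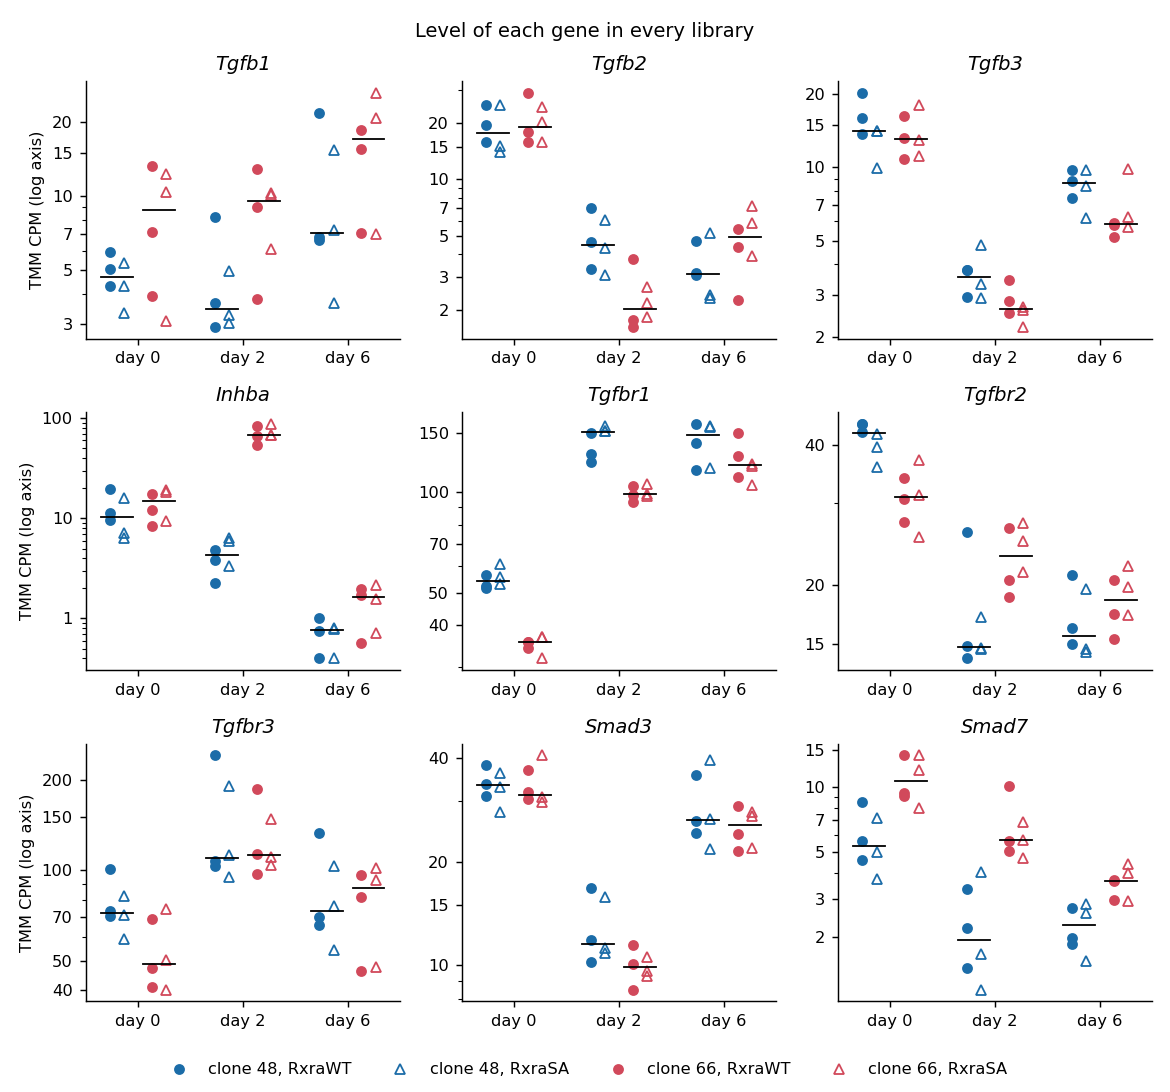
Level of the 9 genes in each of the 36 libraries as TMM-scaled CPM on a log axis, by day, clone (colour) and genotype (filled circles for *Rxra*WT, open triangles for *Rxra*SA), with a line at the median of each clone and day. At day 2 the *Inhba* values of clone 66 lay between 53.7 and 87.7 CPM and those of clone 48 between 2.28 and 6.33 CPM. Pooled over clones, the ranges of filled and open symbols overlapped on every day for all 9 genes.

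*Tgfb2* encodes the TGF-β ligand that relies most on the co-receptor betaglycan for binding, and *Tgfb3* encodes a close relative. *Tgfb2* lay between 14.1 and 29.1 CPM at day 0 (median 18.7), between 1.62 and 7.0 CPM at day 2 (median 3.21) and between 2.26 and 7.22 CPM at day 6 (median 4.13). No library of day 2 or day 6 reached the lowest value of day 0. The log2 fold change was -2.52 (SE 0.23, adjusted p = 4.94e-12), a 5.72-fold decrease, from day 0 to 2 and -2.25 (SE 0.22, adjusted p = 5.23e-11) from day 0 to 6. *Tgfb3* had medians of 13.9, 2.92 and 6.87 CPM on the 3 days, with ranges of 9.97 to 20.3, 2.21 to 4.80 and 5.20 to 9.90 CPM. The ranges of *Tgfb3* did not overlap between any days, so that the gene fell to its lowest level at day 2 and returned part of the way. Its log2 fold changes were -2.19 (SE 0.13, adjusted p = 4.27e-17) at day 2 and -0.95 (SE 0.12, adjusted p = 1.23e-08) at day 6, both against day 0, and 1.24 (SE 0.13, adjusted p = 1.71e-10) from day 2 to 6. Of all genes tested, groups of 12 libraries did not overlap for 27.7% between days 0 and 2, 23.2% between days 0 and 6 and 17.1% between days 2 and 6. On the counting side, exons of *Tgfb2* and *Tgfb3* overlap genes of the opposite strand, but these held only 1.02% and 1.59% of the number of counts of *Tgfb2* and *Tgfb3*.

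After day 2 *Tgfb2* moved differently in the clones, and over both the change to day 6 was 0.27 (SE 0.23, adjusted p = 0.315). In clone 48 it had a median of 4.47 CPM at day 2 and 3.13 CPM at day 6, and in clone 66 a median of 2.02 and 4.90 CPM. The difference between clones in the change from day 2 to 6 was 1.49 on the log2 scale (SE 0.39, adjusted p = 0.0159). Alone, clone 66 showed a rise of 1.05 (SE 0.27, adjusted p = 0.00338), whereas the value of clone 48 was -0.42 (SE 0.27, adjusted p = 0.209). The call of a difference was lost without clone 48 *Rxra*SA day 2 replicate 3 (1.33, adjusted p = 0.0515).

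*Tgfb1*, the best known of the TGF-β ligands, took another course. It lay between 3.10 and 13.3 CPM at day 0 (median 5.18), between 2.93 and 12.9 CPM at day 2 (median 5.51) and between 3.67 and 26.4 CPM at day 6 (median 11.4). The ranges overlapped on all days, and libraries of a clone and day lay far apart at day 6, from 3.67 to 21.8 CPM in clone 48 and from 7.05 to 26.4 CPM in clone 66. The log2 fold change was -0.03 (SE 0.28, 95% interval -0.60 to 0.54, adjusted p = 0.939) at day 2 and 1.02 (SE 0.28, adjusted p = 0.00151), a 2.03-fold increase, at day 6, both against day 0, and 1.05 (SE 0.28, adjusted p = 0.00142) from day 2 to 6. In clone 66 alone *Tgfb1* was not called at day 6 against day 0 (0.94, SE 0.41, adjusted p = 0.0594) or against day 2 (0.86, SE 0.41, adjusted p = 0.0923), and in clone 48 alone the values were 1.13 (SE 0.37, adjusted p = 0.0164) and 1.26 (SE 0.38, adjusted p = 0.0101).

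The make-up of the TGF-β ligand transcripts changed by day 2, when *Tgfb2* and *Tgfb3* had fallen and the level of *Tgfb1* was not called different. Set side by side as CPM per kilobase of exon, *Tgfb1* made up a median of 11.2% of the 3 TGF-β transcripts at day 0 (9.26% to 22.8% over 12 libraries), 41.8% at day 2 (27.2% to 64.8%) and 42.3% at day 6 (24.5% to 58.6%). *Tgfb2* made up 40.5%, 21.3% and 13.2%, and *Tgfb3* 48.3%, 37.3% and 44.7%. On this scale *Tgfb2* and *Tgfb3* were the main TGF-β transcripts of the pre-adipocytes, and no library of day 2 or 6 had a *Tgfb1* share as low as any of day 0. The scale divides by all annotated exon bases, 5042 for *Tgfb1*, 5791 for *Tgfb2* and 3383 for *Tgfb3*. Which transcripts were expressed was not tested, and the shares depend on their lengths. The summed level of the 3 genes had a median of 9.35 CPM per kilobase at day 0, 2.79 at day 2 and 4.94 at day 6. At day 2 the *Tgfb1* share lay between 27.2% and 41.3% in clone 48 and between 42.4% and 64.8% in clone 66, without overlap.

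**Figure D2:**
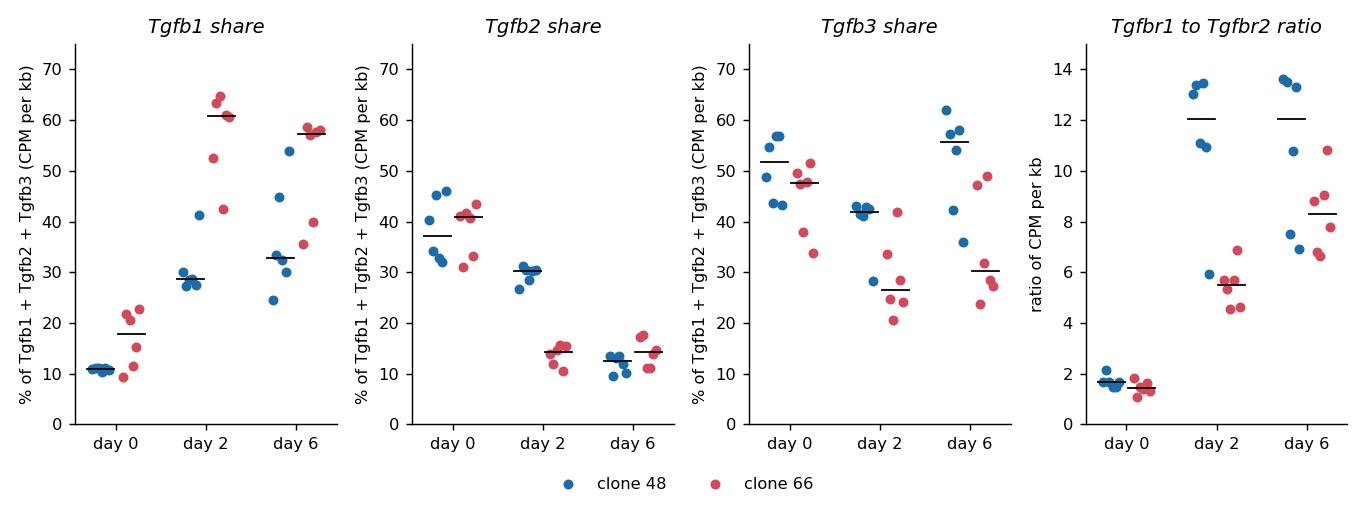
Share of *Tgfb1*, *Tgfb2* and *Tgfb3* in their summed CPM per kilobase (percent) and ratio of *Tgfbr1* to *Tgfbr2* in CPM per kilobase, one point per library, by day and clone, with a line at each median. The median *Tgfb1* share rose from 11.2% at day 0 to 41.8% at day 2, and the median receptor ratio went from 1.56 to 6.41.

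*Inhba*, whose product dimerises to activin A, showed the widest gap between the clones. In clone 48 the *Rxra*WT libraries had 9.53, 11.3 and 19.5 CPM at day 0 and 4.81, 2.28 and 3.84 CPM at day 2, and the *Rxra*SA libraries had 7.21, 6.42 and 16.1 CPM and then 6.33, 3.33 and 5.90 CPM. In clone 66 the *Rxra*WT libraries had 8.4, 12 and 17.6 CPM at day 0 and 53.7, 66.4 and 84.4 CPM at day 2, and the *Rxra*SA libraries had 9.51, 18.6 and 19 CPM and then 68.2, 68.0 and 87.7 CPM. All 6 libraries of clone 66 thus stood above their day 0 range at day 2, and all 6 libraries of clone 48 stood below theirs. At day 6 both clones were low, with 0.400 to 1.02 CPM in clone 48 and 0.564 to 2.14 CPM in clone 66, which rests on 7 to 48 counts per library.

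Fitted alone, *Inhba* in clone 48 fell by 1.43 on the log2 scale between days 0 and 2 (SE 0.28, adjusted p = 0.000313) and in clone 66 it rose by 2.36 (SE 0.26, adjusted p = 6.30e-07). The difference between the clones in this change was 3.74 (SE 0.40, adjusted p = 2.22e-07), a 13.4-fold difference, and the level at day 2 itself was higher in clone 66 by 4.03 (SE 0.31, adjusted p = 2.54e-11). A called change in opposite directions in the clones was rare, with 69 of 16056 genes (0.43%) between these days. The value averaged over clones, 0.70 (SE 0.42, adjusted p = 0.134), therefore describes neither clone, and without clone 48 *Rxra*WT day 2 replicate 2 it was 0.93 and without *Rxra*SA replicate 2 of that clone and day 0.92, and both passed the threshold. At day 0 the clones gave a difference of 0.29 (SE 0.28, adjusted p = 0.511). The log2 fold change of *Inhba* from day 0 to 6 was -3.93 (SE 0.47, adjusted p = 3.64e-09) over both clones, -4.04 (SE 0.34) in clone 48 alone and -3.24 (SE 0.30) in clone 66 alone. From day 2 to 6 it fell by 2.61 (SE 0.34, adjusted p = 7.73e-06) in clone 48 and by 5.61 (SE 0.32, adjusted p = 3.22e-10) in clone 66, a difference between clones of -2.96 (SE 0.50, adjusted p = 0.000196). The difference between clones at day 6, 1.07 (SE 0.38, adjusted p = 0.0396), was lost without any one of 7 libraries of that day (0.89 to 1.08), clone 48 *Rxra*WT replicates 1 and 2 and *Rxra*SA replicate 3, and replicates 2 and 3 of both genotypes of clone 66.

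The stretches upstream of these ligand genes are shown because *Tgfb1*, *Tgfb2* and *Inhba* took different courses. The 250 bases before the start site came from RefSeq on GRCm38.p6, from which windows of 6 of the 9 genes were taken. Matches to 6 short motifs on either strand are in capitals. The motifs were the TATA box TATAAA, present in 12.4% of 32851 windows of this length, the GC box GGGCGG (32.7%), the Smad box CAGAC (42.2%), the AP-1 motif TGANTCA (6.75%), the CREB motif TGACG (17.8%) and the E-box CACGTG (6.02%). *Tgfb1* starts on the plus strand behind chr7:25686752-25687001, *Tgfb2* on the minus strand behind chr1:186705990-186706239 and *Inhba* on the plus strand behind chr13:16011601-16011850. Each sequence is written 5′ to 3′ in the direction of its gene.
Tgfb1: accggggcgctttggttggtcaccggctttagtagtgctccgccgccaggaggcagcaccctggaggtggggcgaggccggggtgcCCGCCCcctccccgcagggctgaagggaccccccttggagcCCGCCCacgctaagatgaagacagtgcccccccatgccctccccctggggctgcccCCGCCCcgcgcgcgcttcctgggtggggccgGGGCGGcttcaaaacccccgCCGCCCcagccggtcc
Tgfb2: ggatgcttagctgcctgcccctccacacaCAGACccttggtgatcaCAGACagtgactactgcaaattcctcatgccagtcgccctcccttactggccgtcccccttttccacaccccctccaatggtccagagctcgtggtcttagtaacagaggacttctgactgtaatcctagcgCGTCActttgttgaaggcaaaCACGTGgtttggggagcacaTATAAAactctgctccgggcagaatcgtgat
Inhba: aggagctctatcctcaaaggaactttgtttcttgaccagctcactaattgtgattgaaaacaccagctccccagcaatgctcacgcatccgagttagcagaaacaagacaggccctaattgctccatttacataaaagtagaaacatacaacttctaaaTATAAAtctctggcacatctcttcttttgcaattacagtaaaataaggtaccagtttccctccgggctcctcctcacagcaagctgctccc
The window of *Tgfb1* held 5 GC boxes, no TATA box and 75.2% G and C. The window of *Tgfb2* held a TATA box 31 bases before the start site, 2 Smad boxes, a CREB motif and the E-box, at 53.6% G and C. The window of *Inhba* held a single match, a TATA box 91 bases before the start site, at 43.2% G and C, and the median over all windows was 52.4%. Such matches describe letters in a window and say nothing of binding. *Tgfb3* and *Tgfbr3* had no entry, and the search left out the chromosome of *Smad7*, so no window of that gene was looked up. In the GENCODE M21 annotation on GRCm38 the gene bodies counted were chr7:25687002-25705077 for *Tgfb1*, chr1:186622792-186705989 for *Tgfb2*, chr12:86056745-86079041 for *Tgfb3* and chr13:16011851-16031621 for *Inhba*, with counts taken over exons. The receptor genes lie at chr4:47353222-47414931 (*Tgfbr1*), chr9:116084293-116175360 (*Tgfbr2*) and chr5:107106570-107289629 (*Tgfbr3*), and *Smad3* at chr9:63646767-63757994.

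The receptor genes moved apart. *Tgfbr1*, the type I receptor, lay between 31.9 and 61.1 CPM at day 0 (median 44.3), between 93.5 and 157 CPM at day 2 (median 114) and between 105 and 160 CPM at day 6 (median 125). All libraries of days 2 and 6 were above all libraries of day 0. Its log2 fold change was 1.44 (SE 0.07, adjusted p = 1.19e-18) at day 2, a 2.71-fold increase, and 1.58 (SE 0.07, adjusted p = 9.75e-20) at day 6. Between days 2 and 6 the value was 0.14 (SE 0.07, adjusted p = 0.0842) and was called in clone 66 alone (0.30, adjusted p = 0.00683), with RLE size factors (0.16, adjusted p = 0.0461) and without any one of 14 libraries (0.16 to 0.18), which were 11 of the 12 of day 0, clone 48 *Rxra*SA day 2 replicate 3 and the third replicate of both genotypes of clone 48 at day 6.

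*Tgfbr2*, the type II receptor that binds the ligand first, lay between 25.4 and 44.3 CPM at day 0 (median 36.5), between 14 and 27.2 CPM at day 2 (median 19.7) and between 14.4 and 22.0 CPM at day 6 (median 17.3). Day 6 lay wholly below day 0, and day 2 overlapped it through libraries of both clones. The log2 fold change was -0.86 (SE 0.12, adjusted p = 1.66e-07) at day 2 and -1.03 (SE 0.12, adjusted p = 4.76e-09) at day 6. The fall to day 2 was -1.32 (SE 0.16, adjusted p = 1.28e-06) in clone 48 and -0.39 (SE 0.13, adjusted p = 0.0143) in clone 66, and this difference between clones of 0.88 was called (SE 0.19, adjusted p = 0.0035). At day 0 clone 66 had less *Tgfbr2* than clone 48, by -0.42 on the log2 scale (SE 0.14, adjusted p = 0.0229), and at day 2 it had more, by 0.46 (SE 0.14, adjusted p = 0.0111). The day 0 call was lost without any one of 3 libraries, clone 48 *Rxra*SA replicate 3, clone 66 *Rxra*SA replicate 1 and clone 66 *Rxra*WT replicate 2.

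*Tgfbr3*, the co-receptor, lay between 40.2 and 101 CPM at day 0 (median 69.8), between 95.5 and 242 CPM at day 2 (median 112) and between 46.3 and 133 CPM at day 6 (median 79.0). Its median was highest at day 2, where the highest library of each clone and genotype was replicate 3. The log2 fold change was 1.06 (SE 0.18, adjusted p = 2.12e-06) at day 2 and 0.33 (SE 0.18, 95% interval -0.02 to 0.69, adjusted p = 0.0897) at day 6, and from day 2 to 6 the gene fell by 0.73 (SE 0.18, adjusted p = 0.000517). The day 6 value lay between 0.41 and 0.43 and was called without any one of 3 libraries, clone 48 *Rxra*SA day 6 replicate 1, clone 48 *Rxra*WT day 0 replicate 2 and clone 66 *Rxra*WT day 6 replicate 1. A gene of the same strand overlaps *Tgfbr3* and had separate counts of its own, 2.44% of the number of the *Tgfbr3* counts.

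With the type I receptor up and the type II receptor down, their ratio was higher in every library of days 2 and 6 than in any of day 0. *Tgfbr1* to *Tgfbr2*, in CPM per kilobase, had a median of 1.56 at day 0 (1.08 to 2.13), 6.41 at day 2 (4.56 to 13.5) and 8.92 at day 6 (6.64 to 13.6). At day 2 the ratio had a median of 12.1 in clone 48 and 5.51 in clone 66, and at day 6 of 12.1 and 8.31. *Tgfbr1* was lower in clone 66 than in clone 48 by 0.65 on the log2 scale at day 0 (SE 0.09, adjusted p = 1.54e-06) and by 0.53 at day 2 (SE 0.09, adjusted p = 2.21e-05), without overlap of the libraries, against 13.7% and 18.6% of all genes whose groups of 6 did not overlap. At day 6 the value was -0.21 (SE 0.09, adjusted p = 0.0807), and the clones differed in the change from day 0 to 6 by 0.44 (SE 0.12, adjusted p = 0.0389), a call that was lost without any one of 8 libraries (0.38 to 0.44). These were clone 48 *Rxra*WT day 6 replicates 1 and 3, clone 48 *Rxra*SA day 0 replicate 2 and day 6 replicate 3, clone 66 *Rxra*WT day 0 replicate 1 and day 6 replicate 2, and clone 66 *Rxra*SA day 0 replicate 2 and day 6 replicate 1. The *Tgfbr1* difference at day 6 was called without clone 48 *Rxra*WT or *Rxra*SA replicate 3 or clone 66 *Rxra*WT replicate 2 of that day (-0.27 to -0.26).

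*Smad3*, which carries the signal to the nucleus, dipped at day 2. It lay between 27.9 and 40.8 CPM at day 0 (median 32.5), between 8.51 and 16.8 CPM at day 2 (median 10.7) and between 21.6 and 39.6 CPM at day 6 (median 26.5). Day 2 was separate from both other days, which overlapped each other. Log2 fold changes were -1.57 (SE 0.10, adjusted p = 1.74e-15) from day 0 to 2, a 2.96-fold decrease, 1.26 (SE 0.10, adjusted p = 9.27e-13) from day 2 to 6 and -0.30 (SE 0.10, adjusted p = 0.0082) from day 0 to 6. The last of these was -0.37 (SE 0.12, adjusted p = 0.0136) in clone 66 alone and was not called in clone 48 alone (-0.18, SE 0.17, adjusted p = 0.384).

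*Smad7*, the feedback inhibitor, lay between 3.73 and 14.1 CPM at day 0 (median 8.25), between 1.14 and 10.1 CPM at day 2 (median 4.34) and between 1.55 and 4.37 CPM at day 6 (median 2.90). Within each clone days 0 and 2 overlapped and day 6 lay wholly below day 0, while days 2 and 6 overlapped in clone 48 and not in clone 66. Log2 fold changes were -1.03 (SE 0.18, adjusted p = 5.00e-06) at day 2 and -1.50 (SE 0.19, adjusted p = 8.63e-09) at day 6 against day 0. From day 2 to 6 the gene fell by 0.46 (SE 0.19, adjusted p = 0.0325), which came to -0.81 (SE 0.21, adjusted p = 0.00363) in clone 66 and -0.01 (SE 0.31, adjusted p = 0.982) in clone 48 and was lost without any one of 5 libraries (-0.43 to -0.35), clone 48 *Rxra*SA day 2 replicate 3, both genotypes of clone 66 at day 2 replicate 3 and both at day 6 replicate 1. *Smad7* was higher in clone 66 by 0.94 at day 0 (SE 0.25, adjusted p = 0.00543) and by 1.44 at day 2 (SE 0.27, adjusted p = 0.000109). At day 6 the clones did not overlap, with 1.55 to 2.86 CPM against 2.94 to 4.37 CPM, yet the difference of 0.67 (SE 0.27, adjusted p = 0.0665) was not called. It was called, at 0.66 to 0.69, without any one of 3 day 2 libraries, clone 48 *Rxra*SA replicates 1 and 3 and clone 66 *Rxra*WT replicate 3. It was also called with no filter on low counts (0.69, adjusted p = 0.0388) and by DESeq2 (0.66, adjusted p = 0.0496). Of all genes tested, 15.2% did not overlap between the clones at day 6. Lowest counts of *Smad7* were 18 per library, so counting error is part of its spread.

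**Figure D3:**
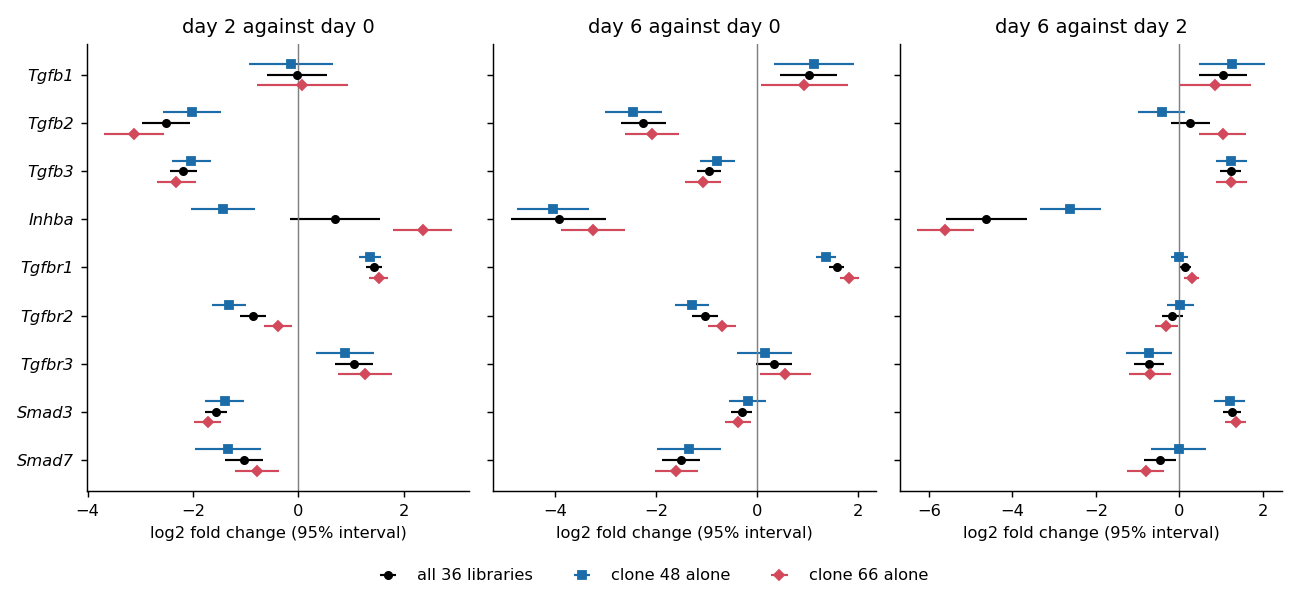
Log2 fold change of each gene for the 3 pairs of days, with 95% intervals, from all 36 libraries (black circles) and from clone 48 (blue squares) and clone 66 (red diamonds) fitted alone. For *Inhba* at day 2 against day 0 the clones lay on opposite sides of 0, at -1.43 and 2.36.

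Clone differences among the 9 genes at single days numbered 3 at day 0 (23.7% of all genes tested), 5 at day 2 (30.0%) and 1 at day 6 (26.2%). *Tgfb2* was among them at day 2, lower in clone 66 by 1.03 on the log2 scale (SE 0.28, adjusted p = 0.00507). Differences between clones in the change over days were called for 2 of 9 genes from day 0 to 2 (6.84% of all genes), 1 of 9 from day 0 to 6 (3.85%) and 2 of 9 from day 2 to 6 (6.18%).

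None of the 9 genes differed between *Rxra*SA and *Rxra*WT at any day, nor in its change between days, and 0.0% of all genes tested did in edgeR's quasi-likelihood test. Over all genes, 139, 162 and 125 had an unadjusted p under 0.05 at days 0, 2 and 6, and DESeq2 called 0 genes on each day. Log2 differences of the 9 genes ran from -0.24 for *Inhba* at day 0 to 0.24 for *Tgfb2* at day 6, all with an adjusted p of 1. The 95% intervals were narrowest for *Tgfbr1*, from -0.16 to 0.25 at day 0, from -0.09 to 0.32 at day 2 and from -0.27 to 0.14 at day 6, and widest for *Inhba*, from -1.32 to 0.84, from -0.85 to 1.23 and from -1.55 to 1.47. Same-numbered *Rxra*WT and *Rxra*SA libraries of a clone and day deviated together. Pairing them with a block for each clone, day and number gave *Inhba* at day 2 an interval from -0.02 to 0.54 around 0.26. This block also takes up the clone difference on each day, so the narrower interval cannot be credited to pairing alone. In the same-numbered pairs *Inhba* and *Tgfbr1* were higher in *Rxra*SA in 6 of 6 at day 2. Their unadjusted p was 0.0679 and 0.0957 in the paired edgeR fit, with an adjusted p of 1 for both. How many of all genes had 6 of 6 pairs on the same side was not counted, so these pairs are a description. Pooled over clones, the libraries of the genotypes overlapped for all 9 genes on every day. Of all genes, 0.012%, 0.012% and 0.0239% did not overlap at days 0, 2 and 6. A clone gap as wide as that of *Inhba* at day 2 makes such overlap certain. In clone 48, on 3 libraries each, *Tgfbr1* at day 2 had 123 to 150 CPM in *Rxra*WT and 152 to 157 CPM in *Rxra*SA. There *Tgfbr2* at day 0 had 42.5 to 44.3 against 35.9 to 42.2 CPM. How many of all genes separate in this way within a clone was not counted. The clone gap of *Inhba* at day 2 was present in both genotypes, where the lowest values of clone 66 were 53.7 and 68.0 CPM and the highest of clone 48 were 4.81 and 6.33 CPM for *Rxra*WT and *Rxra*SA.

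**Figure D4:**
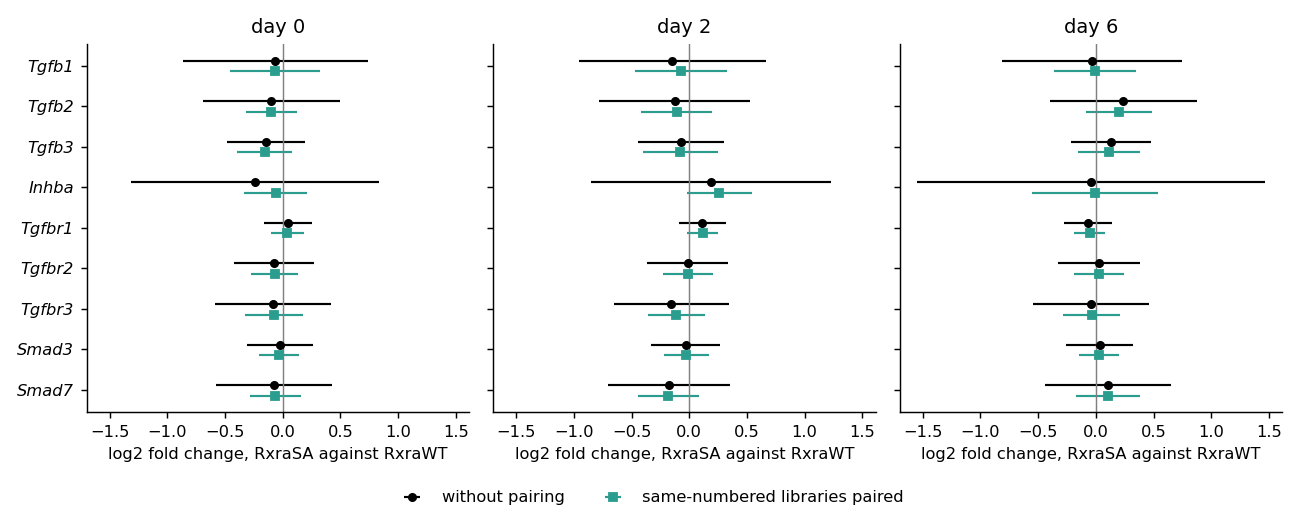
Log2 fold change of *Rxra*SA against *Rxra*WT for each gene at days 0, 2 and 6 with 95% intervals, from the fit without pairing (black circles) and from the fit with same-numbered libraries paired within each day (green squares). Every interval includes 0.

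Compared per kilobase of exon, *Tgfbr3* and *Tgfbr1* had the highest means of the 9 transcripts over both clones on each day, whereas at day 0 in clone 66 *Smad3* (6.03) came before *Tgfbr1* (5.39). At day 0 the mean CPM per kilobase was 9.93 ± 2.74 for *Tgfbr3* (SD, n = 12), 6.91 ± 1.64 for *Tgfbr1*, 6.02 ± 0.699 for *Smad3*, 4.42 ± 0.804 for *Tgfbr2*, 4.21 ± 0.892 for *Tgfb3*, 3.42 ± 0.853 for *Tgfb2*, 2.02 ± 0.769 for *Inhba*, 1.87 ± 0.779 for *Smad7* and 1.30 ± 0.704 for *Tgfb1*. Each neighbour in this order overlapped the next in its range. At day 2 the order began with *Tgfbr3* (20.5 ± 7.22) and *Tgfbr1* (18.6 ± 3.87), and no library's *Inhba* reached the lowest *Tgfbr1*. *Inhba* was the third by mean in clone 66 (11.2 ± 1.97, n = 6) and stood at rank 8 of 9 in clone 48 (0.691 ± 0.243, n = 6). At day 6 it ran from *Tgfbr1* (20.2 ± 3.02) and *Tgfbr3* (12.4 ± 3.99) through *Smad3* (4.90 ± 1.00), *Tgfb1* (2.60 ± 1.51), *Tgfb3* (2.20 ± 0.530) and *Tgfbr2* (2.17 ± 0.334) to *Tgfb2* (0.718 ± 0.273), *Smad7* (0.649 ± 0.193) and *Inhba* (0.168 ± 0.0964). Gaps without overlap stood below *Tgfbr2* and below *Smad7*. *Tgfb1* had the lowest mean of the 3 TGF-β transcripts at day 0 in each clone. At day 6 its mean was above that of *Tgfb3* in clone 66 (3.17 against 1.91) and below it in clone 48 (2.04 against 2.48).

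The spread between libraries of a group was shared by most of the 9 genes. When the mean of the 3 libraries of its group was subtracted from each value, the deviations of *Tgfbr3* and *Smad3* had a Pearson r of 0.91 over the 36 libraries, those of *Tgfb1* and *Tgfbr3* 0.89 and those of *Tgfbr2* and *Tgfbr3* 0.87, while *Tgfbr1* and *Smad3* had -0.57. The points share their library and its depth and composition, so these values are descriptions. Replicate 3 was the highest of its group in 12 of 12 groups for *Smad7*, in 11 for *Tgfb2* and in 10 each for *Tgfb1*, *Tgfbr3* and *Smad3*, and in 1 for *Tgfbr1*. As many as 12 were reached by 1.44% of all genes tested, 11 or more by 4.21% and 10 or more by 10.3%. Day comparisons have all replicate numbers on both sides.

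Among the genes whose log2 CPM followed each of the 9 most closely over the 36 libraries, out of 9381 genes whose mean log2 CPM was over 3, were *Inppl1* (Pearson r 0.97) and *Klf13* (0.95) for *Tgfb1*, *Washc1* and *Pcolce* (both 0.95) for *Tgfb2*, and *Ldb1* and *Tspan17* (both 0.96) for *Tgfb3*. *Usp54* (0.95) was among the closest to *Inhba*. Among the closest to the receptors were *Arl4a* and *Ppp6c* (both 0.97) for *Tgfbr1*, *Crim1* (0.92) for *Tgfbr2*, and *Ksr1* and *Vps13d* (both 0.93) for *Tgfbr3*. *Triobp* and *Plcd1* (both 0.97) were nearest to *Smad3*, and *Fkbp10* (0.93) and *Pea15a* (0.92) to *Smad7*. The libraries share their days and clones, so these values are descriptions.

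The rest of the pathway was described through a list of 95 genes, of which 94 matched a single gene identifier and 85 were not among the 9. Of these 85, 74 passed the filter on low counts. Between days 0 and 2, 10 of the 74 rose (35.8% of all genes did), 45 fell (37.5%) and 19 were not called, with a median log2 fold change of -0.92 against -0.02 over all genes tested. Between days 0 and 6, 17 rose (32.9% of all genes), 37 fell (35.4%) and 20 were not called, with a median of -0.60 against -0.03. Between days 2 and 6, 32 rose (31.9%), 15 fell (30.1%) and 27 were not called, with a median of 0.16 against 0.01. No gene of the list was called between the genotypes.

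Other ligands of the family were few. Of the 13 ligand genes on the list 7 were tested. *Inhbb*, which encodes the subunit of activin B, took another course than *Inhba* after day 2. It lay between 0.150 and 2.09 CPM at day 0, at or under 0.224 CPM at day 2, on at most 4 counts, and between 2.88 and 11.6 CPM at day 6. The log2 fold change of *Inhbb* was -2.45 (SE 0.42, adjusted p = 3.54e-06) at day 2 and 3.29 (SE 0.25, adjusted p = 8.56e-14), a 9.78-fold increase, at day 6. Per kilobase of exon, the mean of *Inhbb* at day 6 was 1.47 CPM and that of *Inhba* 0.168 CPM, and at day 0 they were 0.149 and 2.02 CPM. *Gdf11*, a ligand close to myostatin, went from a mean of 11.8 ± 2.28 CPM (SD, n = 12) at day 0 to 2.26 ± 0.538 at day 2 and 1.77 ± 0.411 at day 6, a log2 fold change of -2.73 (SE 0.14, adjusted p = 8.08e-19) over the whole interval.

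Genes of ligand storage and activation mostly fell, 9 of 13 at day 2, when 37.5% of all genes fell, and 8 of 13 at day 6, when 35.4% did, with 2 higher on each day. *Thbs1*, the gene of thrombospondin-1, which can release TGF-β from its latent form, lay between 449 and 1217 CPM at day 0, between 4.37 and 21.6 CPM at day 2 and between 15.2 and 183 CPM at day 6. Its log2 fold change was -6.47 (SE 0.39, adjusted p = 1.23e-16) at day 2 and -3.63 (SE 0.35, adjusted p = 2.48e-11) at day 6. *Ltbp2*, one of the latent TGF-β binding protein genes, rose by 2.71 (SE 0.16, adjusted p = 8.70e-17) to day 6. By day 2 it had risen by 0.51 over both clones (SE 0.16, adjusted p = 0.00453), made up of 1.16 in clone 48 (SE 0.16, adjusted p = 1.02e-05) and -0.01 in clone 66 (SE 0.15, adjusted p = 0.941).

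Among the other receptors, *Eng*, the gene of the co-receptor endoglin, fell by 2.73 (SE 0.19, adjusted p = 7.67e-15) to day 2 and by 1.09 (SE 0.16, adjusted p = 3.35e-07) to day 6. *Acvr1c*, a type I receptor gene known from mature fat cells, had at most 2 counts in any library of day 0 and at most 3 at day 2, and between 5 and 58 counts at day 6. Summed over 12 libraries these were 6, 10 and 300 counts, a 47.3-fold ratio per total count between days 0 and 6 (95% counting interval 21.5 to 130). It reached 1.87 to 3.38 CPM in clone 48 and 0.268 to 0.495 CPM in clone 66 at day 6. Exons of *Eng* and *Tgif2* overlap strongly counted genes of the opposite strand, so both are uncertain.

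Of 7 tested antagonist genes, which encode proteins that bind ligands or block receptors, 6 fell at day 2, against 37.5% of all genes, and at day 6 3 had fallen and 1 was higher, against 35.4% and 32.9%. *Fst*, the gene of follistatin, which binds activins, fell by 5.32 (SE 0.43, adjusted p = 3.77e-13) to day 6, from 5.14 to 97.5 CPM down to 0.165 to 1.81 CPM. *Dcn*, the gene of decorin, fell by 3.18 (SE 0.46, adjusted p = 1.58e-07) to day 2 but had at most 2.29 CPM even at day 0 and at most 2 counts in any library of clone 48, and with clone-specific coefficients the value was -2.17 and not called (adjusted p = 0.0693). *Lefty1*, which encodes an inhibitor of Nodal signalling, was higher at day 6 by 0.51 (SE 0.18, adjusted p = 0.0146). With scaling by library size alone that value was 0.33 and not called (adjusted p = 0.114). Among the receptor Smads and their partners, 5 genes were tested, and none but *Smad3* was called at day 2 or day 6, with *Smad2* at -0.01 and 0.10 and *Smad4* at 0.08 and 0.10.

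Negative regulators inside the cell were split, with 4 of 12 higher and 4 lower at day 2 and 5 higher and 3 lower at day 6, *Smad7* included, shares near those of all genes (35.8% higher and 37.5% lower at day 2, 32.9% and 35.4% at day 6). *Strap*, whose product holds Smad7 at the receptor, rose by 0.93 (SE 0.08, adjusted p = 5.81e-13) to day 2, and *Tgif2*, a gene of a Smad corepressor, fell by 0.99 (SE 0.14, adjusted p = 9.26e-08). *Smurf1*, a ubiquitin ligase gene, rose by 1.07 (SE 0.11, adjusted p = 3.22e-10) to day 6. *Pmepa1*, which encodes a membrane protein that traps Smads and is itself induced by TGF-β, fell by 2.63 (SE 0.43, adjusted p = 2.32e-06) to day 6.

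Most target genes fell. Of 30, all tested, 22 were lower at day 2 and 22 at day 6 (37.5% and 35.4% of all genes were), with 4 and 6 higher, and the median log2 fold change was -2.0 and -2.30. *Acta2*, the gene of smooth muscle actin, fell by 7.71 (SE 0.23, adjusted p = 4.16e-25) to day 2 and by 6.43 (SE 0.21, adjusted p = 6.32e-24) to day 6, from 123 to 431 CPM at day 0 down to 0.672 to 2.05 CPM and 2.41 to 5.05 CPM. *Ccn2*, the connective tissue growth factor gene, fell by 5.52 (SE 0.30, adjusted p = 5.32e-18) and 3.78 (SE 0.24, adjusted p = 7.14e-16) on these days, to at most 5 counts at day 2. *Tgfbi*, the gene of a matrix protein named for its induction by TGF-β, fell by 2.46 (SE 0.27, adjusted p = 3.57e-10) and 2.63 (SE 0.27, adjusted p = 1.03e-10). *Cdkn1a*, the gene of the cell cycle inhibitor p21, ran against this, with a rise of 3.15 (SE 0.36, adjusted p = 1.17e-09) at day 2 and of 2.96 (SE 0.36, adjusted p = 5.38e-09) at day 6. These genes also respond to other signals, and *Ccn2* and *Tgfbi* were named after their values were seen.

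*Inhba* was not the only gene on the list whose change differed between the clones. The change from day 0 to 2 differed between clones for 15 of the 74 other genes, 10 with the larger value in clone 66 (3.61% of all genes) and 5 with the smaller (3.23%), together 6.84% of all genes. Those larger in clone 66 included *Fst*, *Pmepa1*, *Lefty1*, *Postn*, *Sphk1*, *Bgn*, *Skil*, *Fstl3* and *Itgb5*, and those smaller were *Col3a1*, *Ltbp2*, *Timp3*, *Bambi* and *Zeb1*. A larger value was often a smaller fall, since *Fst*, *Lefty1*, *Bgn*, *Fstl3* and *Itgb5* fell in both clones, and *Sphk1* rose in both. Like *Inhba*, *Pmepa1* and *Skil* were called in opposite directions in the clones, both of them higher at day 2 in clone 66 and lower in clone 48. The genes in these lists that are not described above were picked out by this test, after their values were seen, and not by the naming rule.

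*Pmepa1* went from 4.78 to 12.6 CPM down to 1.52 to 4.90 CPM in clone 48, a change of -1.71 (SE 0.38, adjusted p = 0.000894), and from 2.55 to 8.55 CPM up to 6.61 to 27.8 CPM in clone 66, a change of 1.72 (SE 0.34, adjusted p = 0.000323). *Skil*, which encodes the corepressor SnoN and is itself a target of the pathway, changed by -0.49 (SE 0.10, adjusted p = 0.000514) and 0.79 (SE 0.10, adjusted p = 4.33e-06). The targets *Acta2*, *Ccn2* and *Tgfbi* fell in each clone alone, with values of -7.42 and -7.98, -5.64 and -5.38, and -2.07 and -2.92 in clones 48 and 66, and no difference between the clones in these changes was called. Other targets did differ. Of the 30 genes listed as targets, 3 had a larger value in clone 66 and 3 a smaller one (3.61% and 3.23% of all genes). *Postn* and *Sphk1* were among the larger, and *Col3a1*, *Timp3* and *Zeb1* were the smaller.

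For *Fst* the gap between the clones lay at day 0 and not, as for *Inhba*, at day 2. Clone 48 had 50.2 to 97.5 CPM and clone 66 had 5.14 to 11.6 CPM at day 0, and at day 2 both were low, with 2.67 to 4.52 and 3.71 to 6.29 CPM. *Fst* therefore fell by 4.38 (SE 0.22, adjusted p = 3.18e-11) in clone 48 and by 0.62 (SE 0.20, adjusted p = 0.0145) in clone 66. At day 2 the ranges of *Fst* thus overlapped between clones and those of *Inhba* did not, and at day 0 those of *Inhba* overlapped and those of *Fst* did not.

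**Figure D5:**
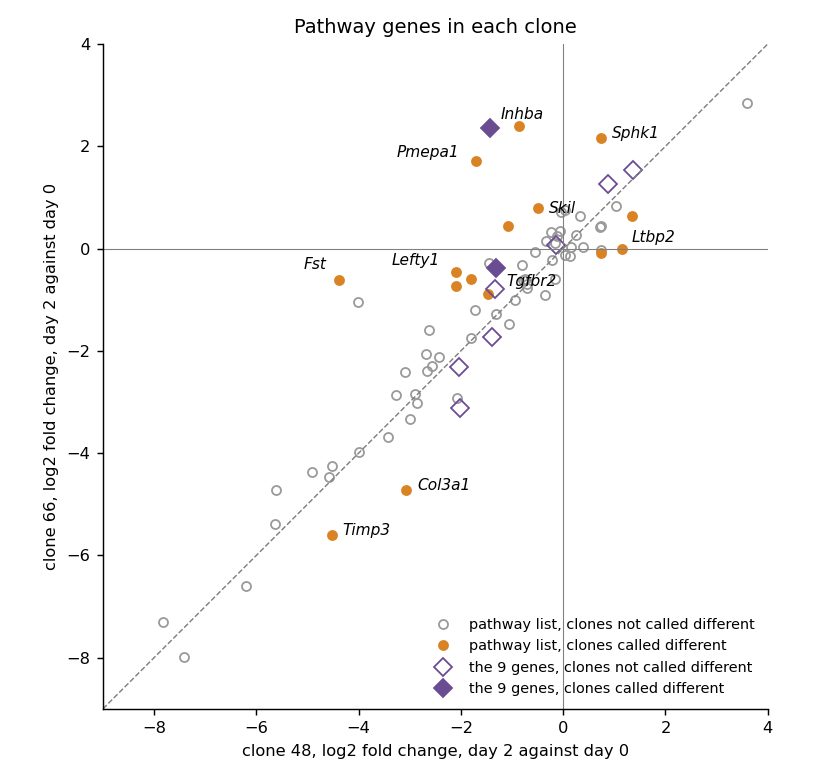
Log2 fold change at day 2 against day 0 in clone 48 (horizontal) and clone 66 (vertical), each clone fitted alone, for the 79 listed genes tested in both, with the 9 genes as diamonds and filled symbols for genes whose change differed between the clones. *Inhba*, *Pmepa1* and *Skil* lie in the upper left part, lower in clone 48 and higher in clone 66, while most genes follow the dashed line of equal change.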

How the data were processed

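RNA was measured by sequencing of 36 libraries, 3 for each clone, genotype and day. The deposited files hold raw read counts per gene, which the authors made by aligning reads to mm10 with STAR 2.7.0d and counting them without strand over exons of GENCODE M21 genes with featureCounts 1.6.2, as the submitters' processing notes and the file headers give it. Because the libraries were stranded but counted without strand, reads of overlapping genes on opposite strands cannot be told apart. The series text calls the 3 libraries of a group technical replicates of a culture and the methods call them independent, so p-values measure the spread between these libraries, which may be technical. Replicate counts differed by more than sampling noise (chi-square per degree of freedom 13.54 to 215.4), and each library was counted once.

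Gene identifiers were matched to symbols through GENCODE M21 (55536 of 55536). edgeR 4.0.16 (R 4.3.3) was used for filterByExpr, TMM scaling and the quasi-likelihood test over 16723 genes, with terms for each genotype and day plus clone, and Benjamini-Hochberg adjustment at 0.05. Clone differences came from a model of the 12 combinations of clone, genotype and day. Standard errors were taken from the fold change and its F value. The test was also run on simulated counts with known changes, and the share of them that it called is not given here. There few genes changed and the others had no day or clone differences, unlike the data. Same-numbered *Rxra*WT and *Rxra*SA libraries of a clone and day deviated together (18 correlations from 0.176 to 0.930 over 9381 genes), so the numbers pair genotypes, whereas between days some correlations were under 0.1 (lowest -0.325). Intervals of counts cover counting error only.

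The 9 genes, the list of 95 pathway genes and the marker lists were chosen with earlier results of these data known. Of the list, genes were named by rule as the largest called rise and fall of each role on days 2 and 6, beside the 9. *Hgs*, held by 2 identifiers, was left out, and results of some genes are not reported here. The alternatives comprised 15 settings, of which 2 with clone-specific coefficients were added after seeing the data, and each of 36 libraries left out in turn.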

Additional observations from a re-analysis of the deposited data

Results flagged for a closer look

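In groups of 6 libraries of a genotype and day, a single library stood apart from the others by Dixon's test in 3 of 54 groups. Chance gives this in about 1 in 20 groups when the libraries are independent and from a single population. Here each group joined 2 clones, and replicates of the same number deviated together, so that rate cannot be applied. *Tgfb1* was 13.3 CPM in the *Rxra*WT day 0 library of clone 66 replicate 3, the highest of its group. *Smad3* was 15.8 CPM in the *Rxra*SA day 2 library and 39.6 CPM in the *Rxra*SA day 6 library of clone 48, both replicate 3 and both the highest of their groups.

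The change between days differed between clones, by a test of that difference, for 4 of the 9 genes. From day 0 to 2 the change of *Inhba* was larger in clone 66 by 3.74 on the log2 scale and that of *Tgfbr2* by 0.88. From day 0 to 6 the change of *Tgfbr1* was larger in clone 66 by 0.44. From day 2 to 6 that of *Tgfb2* was larger by 1.49, and that of *Inhba* differed by -2.96. Each clone was sequenced in a pool of its own, so clone and pool cannot be told apart.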

How the results depend on the processing

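Leaving out 1 library at a time, 4797 values of the 9 genes kept their side of the threshold, 39 gained a call and 24 lost it. Under the other alternatives 1433 kept it, 38 gained, 13 lost and 1 reversed. The cause of these changes was not tested. Reversals came from fitting a clone alone, for day 2 against day 0, with *Inhba* at -1.43 and *Pmepa1* at -1.71 in clone 48 and *Ltbp2* at -0.015 in clone 66. The *Ltbp2* value was near 0 and not called (SE 0.15, adjusted p = 0.941), so its sign changed and its call was lost. Of the 9 genes, 1 differed between clones at day 6, and this was 3 with library size alone, 2 with no filter on low counts, 3 with DESeq2 and 0 to 2 without single libraries. For the change from day 0 to 6, 1 differed, and this was 0 with library size alone, 0 with no filter and 0 to 2 without single libraries. From day 2 to 6, 2 differed, with 1 without clone 48 *Rxra*SA day 2 replicate 3 and 3 without clone 66 *Rxra*WT day 6 replicate 1, where *Tgfbr1* was called (0.40, adjusted p = 0.0444). From day 0 to 2, 2 differed, and *Tgfb2* (-1.14, adjusted p = 0.0629) was called as the third with library size alone (-1.18, adjusted p = 0.0408), with no filter (-1.12, adjusted p = 0.0263), with DESeq2 (-1.13, adjusted p = 0.0383) and without any one of 6 libraries (-1.38 to -1.14), clone 48 *Rxra*WT day 2 replicate 1, clone 48 *Rxra*SA day 0 replicate 3, day 2 replicate 1 and day 6 replicate 3, and clone 66 *Rxra*WT day 2 replicate 3 and day 6 replicate 1. Of the other pathway genes 10 rose by day 2, and 6 did with library size alone. With no filter, *Smad3* at day 6 was -0.25 and not called (adjusted p = 0.0621). *Inhba* at day 2 was called with the added clone-specific coefficients (0.46, adjusted p = 0.0372).

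With a replicate block, the genes differing between clones numbered 5, 8 and 6 at days 0, 2 and 6 against 3, 5 and 1 without it, and 2 for the change from day 0 to 6 against 1. Clones on a day were compared with the replicate number as the block, shared by both clones. Whether same-numbered libraries of the 2 clones belong together was not tested. Changes over days and day comparisons had a block for each replicate of each clone. With these blocks *Smad7* was called between clones at day 6 (0.69, adjusted p = 0.000683), *Tgfb2* in the clones' change from day 0 to 2 (-1.13, adjusted p = 6.93e-05) and *Tgfbr3* at day 6 against day 0 (0.27, adjusted p = 0.0422). Pairing the genotypes changed no call of the 9 genes. Over all genes it called 0, 1 and 0 on the 3 days.

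The depth limited *Inhba* at day 6 and *Smad7*, with 7 and 18 counts in their lowest libraries, and the precision rests on 3 libraries per group.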

Other observations

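*Smad3* and *Smad7*, as CPM per kilobase, stood in different proportion in the clones. The median ratio on days 0, 2 and 6 was 4.53, 4.84 and 11 in clone 48 and 2.7, 1.36 and 5.73 in clone 66, with 6 libraries each. At day 2 and at day 6 the ranges of the clones did not overlap, from 3.20 to 8.07 against 0.921 to 1.69 and from 8.43 to 11.5 against 5.21 to 6.43.

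*Tgfbr3* to *Tgfbr2*, on the same scale, went from a median ratio of 2.13 on day 0 through 8.43 on day 2 to 5.86 on day 6, with 12 libraries a day. All libraries of days 2 and 6 were above those of day 0.

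*Acvr1c* was detected in every library of day 6, and its 6 libraries of clone 48 (1.87 to 3.38 CPM) lay above those of clone 66 (0.268 to 0.495 CPM). *Inhbb* did so too at day 6, with 5.72 to 11.6 CPM against 2.88 to 4.46 CPM. In the edgeR contrast of clone 66 against clone 48 at day 6 the log2 difference was -2.68 (SE 0.27, adjusted p = 1.17e-08) for *Acvr1c* and -1.42 (SE 0.26, adjusted p = 9.26e-05) for *Inhbb*.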
